A study of Arabidopsis thaliana with 10 samples.

Results

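CYP78A9 (AT3G61880, on chromosome 3 of Arabidopsis thaliana) was followed across 10 microarrays of inflorescences in which a related enzyme, KLU (CYP78A5), was switched on. It was chosen by name as a close relative of KLU, with earlier results of these data known. Of 13350 genes to which the array's gene table gives at least 1 probe set of a single name, it is 1 gene, and 1 probe set names it alone. RefSeq lists 6 CYP78A genes, and CYP78A9 was the 1 measured under its name. KLU's own transcript is not analysed here.

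All plants carried the klu-2 allele, a mutant allele of the endogenous KLU gene, in every group including the controls. They also carried 35S::AlcR, which makes the ethanol-responsive activator AlcR from a broadly active promoter, and an AlcA-driven transgene that ethanol vapour turns on. In 35S::AlcR-AlcA::KLU plants the transgene encoded wild-type KLU, and in 35S::AlcR-AlcA::KLUmut plants a mutant form of the protein, the study's control. Wild-type KLU was represented by lines 3-1 and 4-3, sampled without treatment (0 min) and after 90 and 240 min of vapour, and mutant KLU by lines 1-5 and 3-2, sampled after 90 and 240 min. Each of the 5 groups thus held 2 arrays, 1 from each independently transformed line, and each array held RNA from pooled inflorescences with young buds. No mutant array without treatment was among the samples, and the plants' age is not given in the labels.

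Cytochrome P450 enzymes of the CYP78A family are specific to plants and act on organ growth. KLU promotes the growth of leaves and floral organs, and is thought to do so through a mobile signal whose chemical nature is unsettled. CYP78A9 is best known from the gynoecium, the fruit and the seed: its overexpression gives large fruits, and its loss together with that of CYP78A6 reduces seed size. Whether its transcript responds to active KLU is the question that the comparisons below address for this gene.

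CYP78A9 gave a signal under the median of every array, and whether that signal lay above background was not tested. Its level was 2.11-fold higher after 90 min of wild-type KLU than before induction, and lay between these levels at 240 min. The deposited values are log2 intensities made with RMA, a method that corrects background, normalizes arrays to each other and summarizes a probe set. In the uninduced plants CYP78A9 lay at 4.75 in line 3-1 and 4.58 in line 4-3. After 90 min of wild-type KLU it lay at 5.78 and 5.70 in the same lines, and after 240 min at 4.98 and 5.20. With mutant KLU it lay at 4.66 in line 1-5 and 4.44 in line 3-2 at 90 min, and at 4.60 and 4.36 at 240 min. The 4 arrays of induced wild-type KLU were thus all above the other 6 arrays, and the 2 at 90 min were above the 2 at 240 min. The uninduced and mutant groups overlapped with each other.

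As group levels, the order was wild-type KLU at 90 min (5.74 ± 0.06 on the log2 scale, SD, n = 2), wild-type KLU at 240 min (5.09 ± 0.16), uninduced (4.67 ± 0.12), mutant KLU at 90 min (4.55 ± 0.16) and mutant KLU at 240 min (4.48 ± 0.17). No neighbours in this order differed past the threshold of limma's moderated test, an adjusted p of 0.05 after Benjamini-Hochberg adjustment over all 22746 probe sets. The arrays of wild-type KLU at 240 min overlapped neither with those at 90 min nor with the uninduced ones, while the mutant arrays at 90 min overlapped with the uninduced ones and with the mutant arrays at 240 min. Against the other probe sets of the same array, CYP78A9 was higher than 46.8% to 47% of them at 90 min of wild-type KLU, than 38.9% and 41.2% at 240 min, and than 32.7% to 36.4% on the other 6 arrays. The array medians themselves lay between 5.93 and 6.05, so CYP78A9 stayed under the median of every array.

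**Figure D1:**
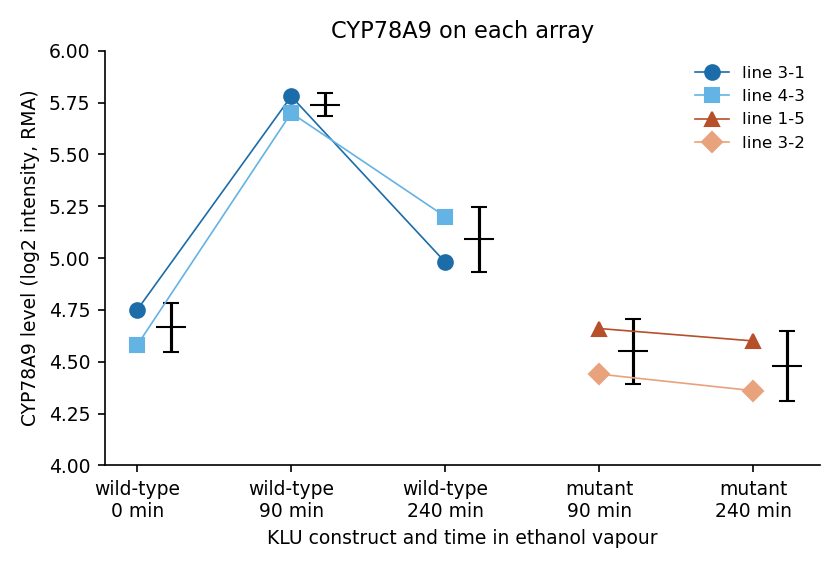
CYP78A9 log2 intensity (vertical axis) on each of the 10 arrays by construct and time (horizontal axis); symbols are lines, joined across times, and the black bars beside them are the group mean ± SD of 2 arrays. Both wild-type lines peak at 90 min (5.78 and 5.70) and the mutant lines stay between 4.36 and 4.66.

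The spread behind these values was small for this probe set. Its SD within groups, pooled over the 5 groups, was 0.14, against a median of 0.19 over all probe sets, and 27.5% of probe sets had a lower one. Its SD over the 10 arrays was 0.50, higher than for 88.8% of probe sets. Line 3-1 was above line 4-3 by 0.17 at 0 min and by 0.08 at 90 min, and below it by 0.22 at 240 min, a log2 difference of -0.22. Line 1-5 was above line 3-2 by 0.22 at 90 min and by 0.24 at 240 min. With 2 arrays in a group, the precision of each mean is limited by their number.

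After 90 min, wild-type KLU plants had more CYP78A9 transcript than the same lines before induction. The rise was 1.03 in line 3-1 and 1.12 in line 4-3 on the log2 scale, or 2.04-fold and 2.17-fold. The mean rise was 1.08 (SE 0.153, unadjusted 95% interval 0.72 to 1.43, 2.11-fold), and it passed limma's test with an adjusted p of 0.0235. This fit leaves out the pairing of the arrays by line. With the line as a fixed or a random block, limma's adjusted p was 0.0134 or 0.0069. In this comparison 1.62% of all probe sets passed, 1.11% as rises and 0.514% as falls, and 533 probe sets rose by more than CYP78A9. The comparison joins induction of the transgene, vapour and elapsed time, which cannot be told apart in it. Every array of the comparison was needed for the call: limma's adjusted p became 0.102 when the 90 min array of line 3-1 was dropped, 0.0841 when that of line 4-3 was, and 0.109 or 0.114 when the 0 min array of line 3-1 or 4-3 was, with rises of 0.99 to 1.16. Fitting only these 4 arrays, which leaves less to estimate the spread from, gave an adjusted p of 0.137.

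At 240 min less of the rise was left. CYP78A9 was above its uninduced level by 0.23 in line 3-1 and by 0.62 in line 4-3 on the log2 scale, which is 22.3% and 55.4% of each line's difference at 90 min. The mean difference from the uninduced level was 0.43 (SE 0.153, 95% interval 0.07 to 0.78, 1.34-fold) and did not pass limma's test (adjusted p = 0.155), where 6.82% of probe sets did, 3.67% as rises. From 90 to 240 min the level differed by -0.80 in line 3-1 and by -0.50 in line 4-3, on average by -0.65 (95% interval -1.01 to -0.29). That difference did not pass either (limma's adjusted p = 0.281), in a comparison where 0 probe sets did and 2313 (10.2%), CYP78A9 among them, had an unadjusted p under 0.05. Of all probe sets, 704 had a larger fall.

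Mutant KLU plants had the same vapour and elapsed time as wild-type KLU plants, although in different lines. This comparison uses the same induced wild-type arrays as the one with uninduced plants, so the values of both are not independent. At 90 min CYP78A9 was higher with wild-type KLU by 1.19 on the log2 scale (SE 0.153, 95% interval 0.83 to 1.55, 2.28-fold), and the lowest wild-type array was 1.04 above the highest mutant array. With limma's adjusted p at 0.072 the difference did not pass, in a comparison in which 1 probe set did (0.0044%) and 5.86% had an unadjusted p under 0.05. By unadjusted p CYP78A9 ranked 22 of 22746, and 245 probe sets were higher by more. Taken at the gene level and with the line as a random block, the same difference passed with limma's adjusted p at 0.0465. That setting was added after seeing the data, and of 18 alternatives it was the 1 that passed. The block at the probe set level gave 0.0554 and the gene level without a block 0.0681. Fitting only the compared groups gave 0.593.

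At 240 min the difference between the constructs was 0.61 (SE 0.153, 95% interval 0.25 to 0.97, 1.53-fold), with both wild-type arrays above both mutant arrays by at least 0.38. It did not pass (limma's adjusted p = 0.126), where 0.721% of probe sets passed as higher with wild-type KLU and 0.413% as lower. An interaction term compared the construct difference at 240 min with that at 90 min and gave -0.58 (95% interval -1.08 to -0.08). It did not pass limma's test (adjusted p = 1). In that test 0 probe sets passed, and 603 (2.65%), CYP78A9 among them, had an unadjusted p under 0.05. Averaged over both times for each line, the difference was 0.90 (95% interval 0.54 to 1.26, 1.87-fold), with an adjusted p of 0.192 in limma's test of 2 lines against 2. There 0 probe sets passed and 2209 (9.71%) had an unadjusted p under 0.05. When all 8 induced arrays entered limma's fit singly, with a random block for the line, the adjusted p was 0.0402. Each line then counts at both its times, although the line is the replicate.

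With mutant KLU the CYP78A9 transcript showed no difference that could be detected with these arrays. Against the uninduced wild-type KLU lines it differed by -0.12 at 90 min (95% interval -0.47 to 0.24, limma's adjusted p = 0.992) and by -0.19 at 240 min (95% interval -0.54 to 0.17, adjusted p = 0.876). At 90 min 0.0396% of probe sets passed (0.0176% higher, 0.022% lower) and 6.6% had an unadjusted p under 0.05. At 240 min these shares were 0.154% (0.0791% higher, 0.0747% lower) and 7.76%. From 90 to 240 min it differed by -0.06 in line 1-5 and -0.08 in line 3-2, on average by -0.07 (95% interval -0.43 to 0.29, adjusted p = 1), in a comparison where limma's test passed 0 probe sets and 490 (2.15%) had an unadjusted p under 0.05. A difference as large as the rise seen with wild-type KLU at 90 min lies outside these intervals, which are not adjusted for the number of probe sets. Without an untreated mutant array, a rise within the mutant lines from before treatment could not be measured. The intervals against uninduced plants also hold any difference between the lines, and the last cannot show a rise completed by 90 min.

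**Figure D2:**
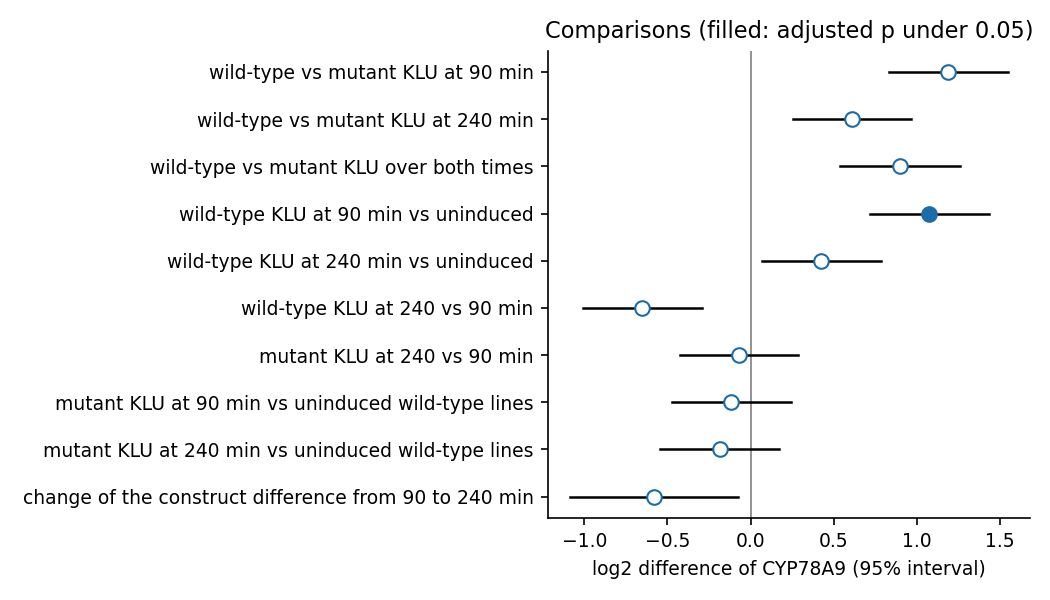
Log2 difference of CYP78A9 (horizontal axis) in each of the 10 comparisons (vertical axis), with its 95% interval as a line; a filled point marks an adjusted p under 0.05 in limma's test. Only wild-type KLU at 90 min against uninduced (1.08) is filled, and the 3 comparisons of mutant KLU alone or against uninduced lines have intervals that include 0.

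The order of the CYP78A9 arrays, with both at 90 min of wild-type KLU on top, both at 240 min next and the other 6 below, was found for 113 probe sets, or 0.497% of those tested. Of these, 54 carry a single gene name and 59 are unnamed here. All 4 induced wild-type arrays lay above the other 6 for 750 probe sets (3.3%), and both arrays at 90 min lay above the other 8 for 435 (1.91%). Among the 113, 56 with CYP78A9 included were higher at 90 min by at least as much as CYP78A9, both against mutant KLU and against uninduced plants. The pattern of CYP78A9 was thus shared by other transcripts.

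The 6 genes with the profile most like CYP78A9 were found among 13349 other genes by the root mean square difference of the log2 levels over the 10 arrays, after each gene's mean was taken off. They were AT2G46150 (0.145), THO1 (0.196), AT1G34200 (0.201), AT4G01860 (0.207), AT2G12190 (0.210) and AT1G20550 (0.212), against a median of 0.515 over all genes and 0.478 for a flat profile. The next gene in order stood at 0.218, so the list has no natural end after the sixth. THO1 (AT5G09860) encodes a subunit of the THO complex, which acts in the export of messenger RNA from the nucleus. The gene table gives the other 5 no name beyond their locus.

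AT2G46150, the closest, was at 4.59 and 4.23 on the uninduced arrays of lines 3-1 and 4-3, at 5.05 and 5.33 at 90 min and at 4.59 and 4.74 at 240 min. With mutant KLU it was at 4.13 and 4.00 at 90 min and 4.20 and 4.10 at 240 min in lines 1-5 and 3-2. Its uninduced and its wild-type arrays at 240 min overlapped, unlike those of CYP78A9. AT2G46150 was higher by 0.78 at 90 min than in uninduced plants (limma's adjusted p = 0.0805) and higher by 1.13 than with mutant KLU (0.0825). THO1 was at 7.20 and 7.34 without induction, 8.29 and 8.11 after 90 min of wild-type KLU in lines 3-1 and 4-3, and between 7.21 and 7.41 with mutant KLU. THO1 kept more of its level at 240 min, with 7.96 and 7.99, and there it differed from uninduced plants by 0.71 (adjusted p = 0.0221) and from mutant KLU by 0.74 (adjusted p = 0.0491). At 90 min THO1, AT1G34200, AT4G01860 and AT1G20550 rose against uninduced plants (limma's adjusted p = 0.0223, 0.0145, 0.0497 and 0.0347, the log2 rises being 0.93, 1.32, 1.22 and 1.03). The 6 genes were picked from these same arrays, so these values describe the choice. With Pearson's correlation as the measure 3 of the 6 were again among the 6 closest, and with the distance between group means 0 of the 6 were.

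**Figure D3:**
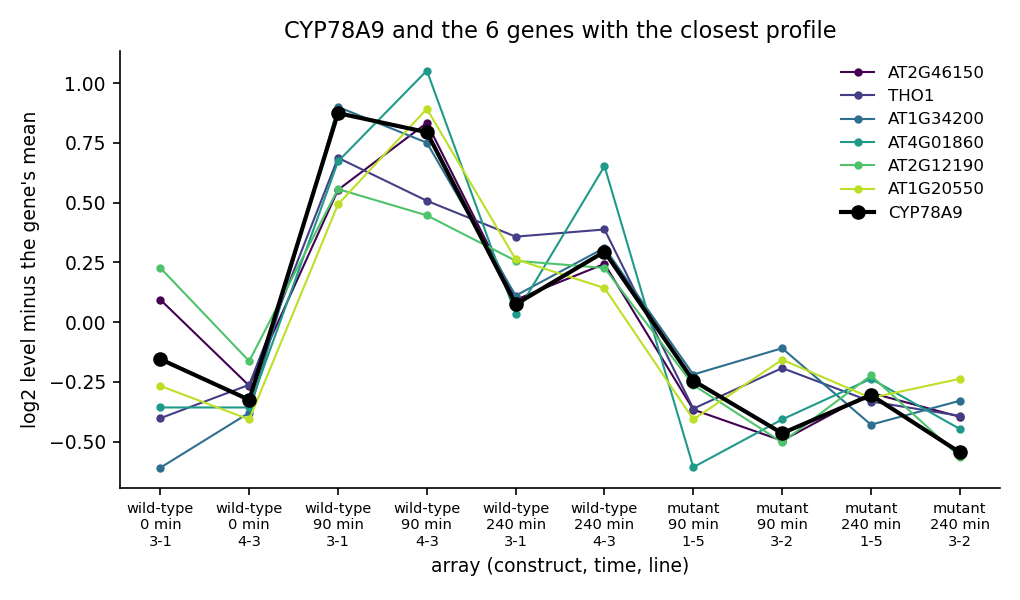
Log2 level minus each gene's mean over the 10 arrays (vertical axis) for CYP78A9 (black) and its 6 closest genes (colours), by array (horizontal axis: construct, time in vapour and line). All 7 genes are highest on the wild-type arrays at 90 min in at least 1 line, and CYP78A9 lies under 0 on the uninduced and mutant arrays.

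The gene table gives a CYP symbol to 22 other measured genes. P450 genes listed by locus alone or unnamed are not among these 22. Whether any gene given above by locus alone is a P450 gene was not checked. These 22, of which most belong to the CYP71B subfamily, had 0 members past limma's threshold in each of the 10 comparisons. Over all probe sets, the share that passed ran from 0% to 6.82% across these comparisons. It was 1.62% in the comparison where CYP78A9 passed. A count of 0 among 22 therefore says little about these genes. In wild-type KLU at 90 min against uninduced, 4 of the 22 had an unadjusted p under 0.05, beside 11.6% of all probe sets, their median difference was -0.05 and the range ran from -0.83 (CYP71B26) to 1.49 (CYP71B31), while the median of all probe sets was -0.02. Between the constructs at 90 min it was again 4 of 22, beside 5.86% of all probe sets, with a median of -0.01 and a range from -1.21 (CYP71B22) to 1.34 (CYP71B31), and the median of all probe sets was -0.01. CYP71B31 exceeded CYP78A9 in size through 1 array: it was at 5.87 on the array of line 3-1 at 90 min and between 2.91 and 3.26 on the other 9 arrays. Of the 22, 1 had both arrays at 90 min of wild-type KLU above the other 8, CYP84A4, with 4.78 and 4.87 against at most 4.68, and 0 had the full order of CYP78A9. These genes were singled out after their values were seen. CYP71B genes resemble each other in sequence, and whether their probe sets share signal was not tested.

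**Figure D4:**
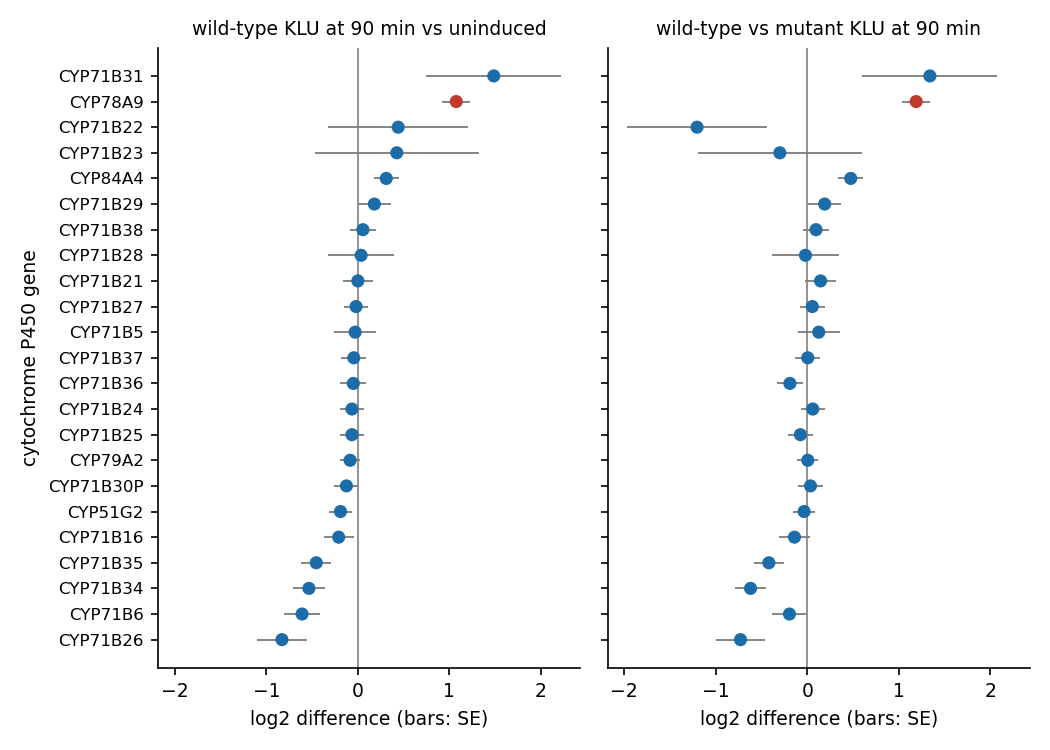
Log2 differences (horizontal axes, bars are the SE) of 23 cytochrome P450 genes (vertical axis) for 90 min of wild-type KLU, set against uninduced plants (left) and mutant KLU (right), with CYP78A9 in red. CYP78A9 lies at 1.08 and 1.19 with short bars, and CYP71B31 at 1.49 and 1.34 with long ones.

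Other genes of seed and organ size, the traits that CYP78A genes act on, gave no call at 90 min. Of 57 listed, 9 were measured. In wild-type KLU at 90 min against uninduced 0 of them passed limma's test, where 1.62% of all probe sets did. An unadjusted p under 0.05 was found for 1 of them, beside 11.6% of all probe sets. Their median difference was -0.06, beside -0.02 over all probe sets, and 4 of the 9 were positive. The smallest p belonged to UBP15, a ubiquitin protease that promotes cell proliferation (-0.52, limma's adjusted p = 0.15), and to JAG, a zinc finger protein that shapes lateral organs (-0.28, adjusted p = 0.603). Against mutant KLU at 90 min 0 of the 9 passed and 0 had an unadjusted p under 0.05. Of all probe sets 0.0044% passed and 5.86% had such an unadjusted p. The median was -0.04 beside -0.01, with JAG at -0.26 and UBP15 at -0.16 (both with a limma adjusted p of 1). At 240 min UBP15 fell against uninduced plants by 0.64 (limma's adjusted p = 0.0354), the 1 member to pass there, in a comparison where 3.15% of probe sets passed as falls. The larger differences there were positive and did not pass: ARL at 1.44 (adjusted p = 0.0866) and SAMBA at 0.71 (adjusted p = 0.0674), both named after their values were seen. Against mutant KLU at 240 min 0 of the 9 passed, with 3 at an unadjusted p under 0.05 (13% of all probe sets), UBP15 at -0.39 (limma's adjusted p = 0.272), ARL at 0.97 (adjusted p = 0.385) and SAMBA at 0.66 (adjusted p = 0.178).

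Genes of gynoecium, ovule and fruit development, where CYP78A9 is best known to act, likewise gave no call at 90 min. Of 53 listed, 12 were measured. Against uninduced plants at 90 min 0 passed limma's test, where 1.62% of all probe sets did. An unadjusted p under 0.05 was found for 2 of 12 (11.6% of all probe sets). Of the 12, 4 were positive and the median was -0.23 beside -0.02 for all probe sets. Those 2 were NGA1 (-0.88, limma's adjusted p = 0.0972) and NGA4 (-0.44, adjusted p = 0.321), transcription factor genes that direct style formation. Against mutant KLU at 90 min 0 passed (0.0044% of all probe sets did), and 1 had an unadjusted p under 0.05 (5.86% of all probe sets did). There 3 of 12 were positive and the median was -0.12. The smallest p in limma's test belonged to NGA1 (-0.50, adjusted p = 0.786) and NGA3 (-0.57, adjusted p = 0.949). At 240 min against uninduced plants the median was -0.35, beside -0.025 for all probe sets. There NGA1 and NGA4 fell and 0 rose, while 3.15% of all probe sets passed as falls and 3.67% as rises. This list and that of seed and organ size were chosen with earlier results known. Their counts therefore cannot be tested against these shares. Against mutant KLU at 240 min the median was -0.46 beside 0, and 0 passed, where 1.13% of all probe sets did. In it 6 of 12 had an unadjusted p under 0.05. The share of probe sets with an unadjusted p under 0.05 in that last comparison was 13%.

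Markers of the cells in the pooled tissue were set beside these values. Of 14 genes of inflorescence and floral organ identity 2 were measured, AGL24 between 4.57 and 5.45 and UFO between 3.24 and 3.87, both under every array median. The labelled tissue therefore could not be checked well from these lists. Of 45 pollen genes 11 were measured, and their mean log2 level was 5.45 and 4.82 on the uninduced arrays of lines 3-1 and 4-3, 6.19 and 5.07 at 90 min and 5.59 and 4.95 at 240 min, and between 5.14 and 5.54 with mutant KLU. At 90 min 2 of the 11 pollen genes rose against uninduced plants, TUA1 (2.29) and AGL30 (1.77), while 1.11% of all probe sets passed as rises. The marker lists were chosen with earlier results of these data known, so their counts cannot be tested against such shares. TUA1 and AGL30 are also part of the pollen mean. The pollen mean was higher at 90 min than at 0 min by 0.75 in line 3-1 and by 0.24 in line 4-3, while CYP78A9 was higher by 1.03 and 1.12. The other 9 pollen genes did not pass, with differences from -0.52 to 0.49. The part of pollen RNA in the CYP78A9 result was not tested. Against mutant KLU at 90 min 0 of the 11 passed, where 0.0044% of all probe sets did, with a median difference of 0.14. At 240 min 2 of the 11 rose and 1 fell against uninduced plants, where 3.67% of all probe sets passed as rises and 3.15% as falls. With mutant KLU as the reference at 240 min, 1 of the 11 passed as higher, beside 0.721% of all probe sets. The tapetum marker AMS, the 1 of 24 that was measured, lay between 4.11 and 4.95, and 3 measured carpel and ovule genes of 10, SPT, INO and NGA1, had a mean between 5.45 and 6.18, lowest at 240 min of wild-type KLU in line 4-3. In bulk tissue a change in the number of cells that make a transcript and a change in the RNA per cell cannot be told apart.

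The genes that lie next to CYP78A9 on chromosome 3 gave no call at 90 min. Gene order was taken from RefSeq, and the 10 nearest measured genes on each side were used, spanning 26 genes before and 20 genes after CYP78A9. At 90 min 0 of the 20 passed limma's test against uninduced plants, where 1.62% of all probe sets did. Their differences ran from -0.99 to 0.89, with a median of -0.02. AT3G61770, AT3G61870 and AT3G61950, all lower, and AT3G61980, higher, had an unadjusted p under 0.05 there (11.6% of all probe sets did). Against mutant KLU 0 passed, where 0.0044% of all probe sets did, with differences from -0.42 to 0.67 and a median of -0.06. With shares this low, 0 of 20 says little about these genes. The directly preceding gene, AT3G61870, differed by -0.51 (limma's adjusted p = 0.245) and by -0.13 (adjusted p = 1), and the nearest measured gene after it, AT3G61920, 7 genes away, by 0.08 (adjusted p = 0.963) and by 0.27 (adjusted p = 1). At 240 min 1 of the 20, AT3G61980, 14 genes away, rose against uninduced plants by 1.38 (limma's adjusted p = 0.0103) and was higher than with mutant KLU by 1.09 (adjusted p = 0.0473). Over all probe sets, 3.67% passed as rises in the first of these comparisons and 0.721% as higher in the second. AT3G61980 was at 8.17 and 8.12 without induction, 9.16 and 8.90 at 90 min and 9.65 and 9.40 at 240 min in lines 3-1 and 4-3, and between 8.22 and 8.65 with mutant KLU. Its highest level thus came at 240 min and that of CYP78A9 at 90 min.

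**Figure D5:**
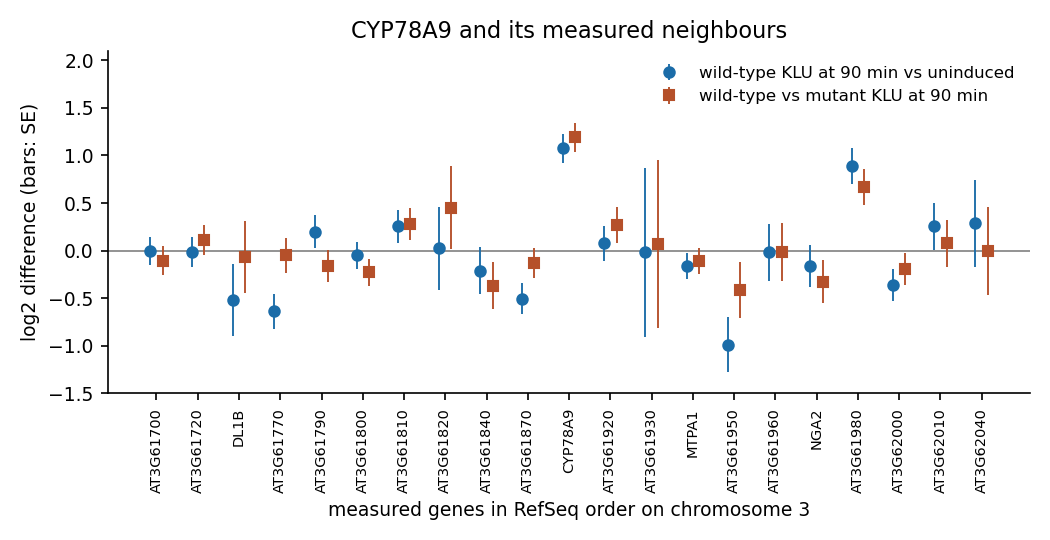
Log2 differences (vertical axis, bars are the SE) of CYP78A9 and the 10 nearest measured genes on each side in RefSeq gene order (horizontal axis), for 90 min of wild-type KLU set against uninduced plants (circles) and mutant KLU (squares). CYP78A9 has the highest value of both series (1.08 and 1.19), followed by AT3G61980 (0.89 and 0.67).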

How the data were processed

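Biotin-labelled total RNA was measured on Affymetrix ATH1 arrays. Per the submitters' processing notes the authors made the deposited log2 intensities with RMA, whose version is not stated. They were used as deposited. Of 22810 probe sets 64 controls were left out. Of the 22746 tested, 13513 name 1 gene, 503 several, and 8730 are unnamed here. Gene order came from RefSeq (TAIR10.1).

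Each comparison used limma 3.58.1 (R 4.3.3) fitting all 10 arrays with a mean for each group, two-sided, with Benjamini-Hochberg adjustment. Over both times, each line's arrays were averaged. The fit was tested on simulated data. Figures used matplotlib 3.10.9. CYP78A9, the lists and the naming rule (the 6 closest profiles, list members and neighbours past the threshold, otherwise the 2 smallest p of a list) were chosen with earlier results of these data known.

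Arrays are paired by transformed line: the line difference correlated between times across probe sets with 0.633, 0.475 and 0.606 (wild-type) and 0.348 (mutant). Alternatives were a line block (fixed, or random with a correlation of 0.271), gene level, other variance models and scalings, compared groups alone and leaving out each array. No label gives a batch.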

Additional observations from a re-analysis of the deposited data

How the results depend on the processing

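CYP78A9 kept its direction under every alternative run in 9 of the 10 comparisons. The exception, mutant KLU at 240 against 90 min, turned from -0.07 to 0.04 when line 1-5 was dropped at 90 min and to 0.05 when line 3-2 was dropped at 240 min, with no call in either. The rise with wild-type KLU at 90 min against uninduced (1.08) lost its call in a fit of the compared groups alone (1.08, adjusted p = 0.137), which has fewer arrays to estimate the spread, and without each of its own 4 arrays. Wild-type against mutant KLU at 90 min (1.19) gained a call at the gene level with a random replicate block (1.19, adjusted p = 0.0465), an alternative added after seeing the data. Over both times the difference (0.90) gained a call with the random replicate block at the probe set level (0.90, limma's adjusted p = 0.0402). It also gained one with that block at the gene level (0.90, adjusted p = 0.0329), likewise added after seeing the data. The replicate block changed no other call.

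Leaving out 1 array at a time gave, between the constructs, 1.08 to 1.30 at 90 min, 0.49 to 0.73 at 240 min and 0.70 to 1.10 over both times. Within the wild-type KLU lines it gave 0.99 to 1.16 at 90 min over uninduced, 0.32 to 0.54 at 240 min and -0.76 to -0.54 from 90 to 240 min. For mutant KLU it gave -0.19 to 0.05 from 90 to 240 min, and -0.23 to -0.01 and -0.31 to -0.07 against uninduced at 90 and 240 min. The interaction ranged from -0.70 to -0.46. CYP78A9 has a mean level (4.91) under the median of all probe sets, so the alternative restricted to probe sets above the median gave no value, and a fixed block could not be fitted between constructs.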

Other observations

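CYP71B23, a cytochrome P450 gene with no test passed here, varied more than CYP78A9 among arrays of the same group. It was at 3.30 and 4.13 on the uninduced arrays of lines 3-1 and 4-3, 3.34 and 4.94 at 90 min and 4.18 and 6.19 at 240 min of wild-type KLU, and it was higher in line 4-3 at each time. CYP71B22 was likewise higher in line 4-3, with 5.56 and 6.61 at 0 min, 5.55 and 7.50 at 90 min and 5.15 and 5.73 at 240 min. With mutant KLU CYP71B22 was at 8.60 and 6.86 at 90 min and 7.18 and 6.52 at 240 min, higher in line 1-5 at both times. These genes were chosen after their values were seen.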
